A study of Mus musculus with 12 samples.

Results

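The 10 genes described here encode the NF-kB transcription factor subunits (Rel, Rela, Relb, Nfkb1 and Nfkb2) and proteins that hold NF-kB back or feed back on it (Nfkbia, Nfkbid, Nfkbie, Nfkbiz and Tnfaip3). They were taken by gene symbol from tables of 55413 genes. All 10 were found in both tables, and all 10 passed the filter on low counts with 15705 genes in all. Bulk RNA sequencing covered 12 mouse libraries labelled as regulatory T cells (Treg cells). In the 8 tumor libraries, however, markers of macrophages and of hepatoma cells or hepatocytes were far higher than T cell markers. Tumor pTreg (3 libraries) were sorted from tumors, and their source in this design is the transferred conventional Foxp3- CD4 T cells of CD45.2 Foxp3YFP-cre donors, in which the Foxp3 locus drives a YFP-Cre fusion. Tumor tTreg (5 libraries) were sorted from tumors too, and their source is tTreg cells taken from lymphoid organs of CD45.1 Foxp3YFP-cre donors. Both came from TCRbd-/- hosts, which lack T cells of their own but keep other immune cells such as macrophages and B cells. The hosts received tTreg, conventional CD4 and CD8 T cells at 1 to 10 to 8, then Hepa1-6 cells (a mouse hepatoma line) 3 days later, and were killed on day 18 of tumor growth. Lymph node Treg (4 libraries) were labelled as total Treg cells of tumor-free mice, with no treatment named and the genotype also given as Foxp3YFP-cre and TCRbd-/-. Mice of the TCRbd-/- genotype lack T cells of their own, so the source of the lymph node Treg cells is unclear from the labels. The labels do not give ages, and do not say whether the tumor-free mice had received cells or whether libraries came from separate animals. The p-values therefore measure only the spread between libraries, which may be technical.

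NF-kB factors are dimers of the 5 subunits. In resting cells IkB proteins such as those of Nfkbia and Nfkbie keep the dimers in the cytoplasm, and kinases that mark IkB for destruction release them. The dimers then switch on genes that include several of their own inhibitors, which forms a feedback loop. In Treg cells signals from the T cell receptor, CD28 and tumor necrosis factor receptors feed into this pathway, and Rel and Rela are known for supporting Treg development and identity. The same genes are also used by macrophages, dendritic cells, B cells and epithelial cells.

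The depth of a library was 18.0 to 18.2 M counts for tumor pTreg, 18.1 to 18.5 M for tumor tTreg, and 14.6 to 17.3 M for lymph node Treg. Levels below are CPM, the counts of a gene scaled to a common library size with trimmed-mean (TMM) factors. Each marker list is given as its lowest and highest summed CPM in tumor pTreg, tumor tTreg and lymph node Treg, in that order. The tumor libraries are Treg libraries by label, and their levels are those of mixed RNA: the 16 pan-T genes (CD3 chains, T cell receptor constant regions, Lck and others) summed to 1292 to 1314, 126 to 135 and 5688 to 5829.6 CPM, and the 6 Treg markers to 267 to 280.5, 79.7 to 82.6 and 2583 to 2689.7 CPM, with no pan-T or Treg marker at 0 in any group. Macrophage and monocyte markers (13 genes, 0 of them at 0 in a group) summed to 6579 to 6617, 6548 to 6988 and 34.0 to 41.1 CPM. Hepa1-6 or hepatocyte markers (10 genes) summed to 5561 to 5969, 8114 to 8589 and 7.07 to 9.11 CPM, with Apoa2, Fgb and Gpc3 at 0 in lymph node Treg. Fibroblast markers (6 genes) summed to 130.5 to 154, 674 to 789 and 1.58 to 3.07 CPM, with Col3a1, Pdgfra and Lum at 0 in lymph node Treg. Dendritic cell markers (7 genes) summed to 21.3 to 23.7, 20.4 to 22.0 and 9.20 to 10.3 CPM, B cell markers (7) to 33.0 to 34.0, 34.8 to 38.3 and 11.8 to 13.4 CPM, and neutrophil markers (7, Ly6g at 0 in lymph node Treg) to 46.9 to 48.7, 43.0 to 47.9 and 2.09 to 2.25 CPM. Most single B cell markers were lower in the tumor groups than in lymph node Treg, although their sum was higher. In tumor pTreg 1 of 7 was called higher and 4 lower, and in tumor tTreg 2 higher and 4 lower. Single dendritic cell markers also went both ways against lymph node Treg. Of these 7, 4 were called higher and 2 lower in tumor pTreg, and 4 higher and 1 lower in tumor tTreg. Endothelial markers (5, Tie1 at 0 in lymph node Treg) summed to 41.9 to 47.3, 23.6 to 26.4 and 179 to 185 CPM, and CD8 T and NK cell markers (5, Ncr1 at 0 in tumor pTreg) to 33.2 to 36.0, 1.99 to 2.82 and 18.3 to 23.4 CPM. Unlike their sum, 4 of 5 endothelial markers were called higher and 1 lower in each tumor group than in lymph node Treg. The part of these other cells in the results on NF-kB genes was not tested. Fewer cells of a type and less RNA per cell cannot be told apart in bulk samples.

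**Figure D1:**
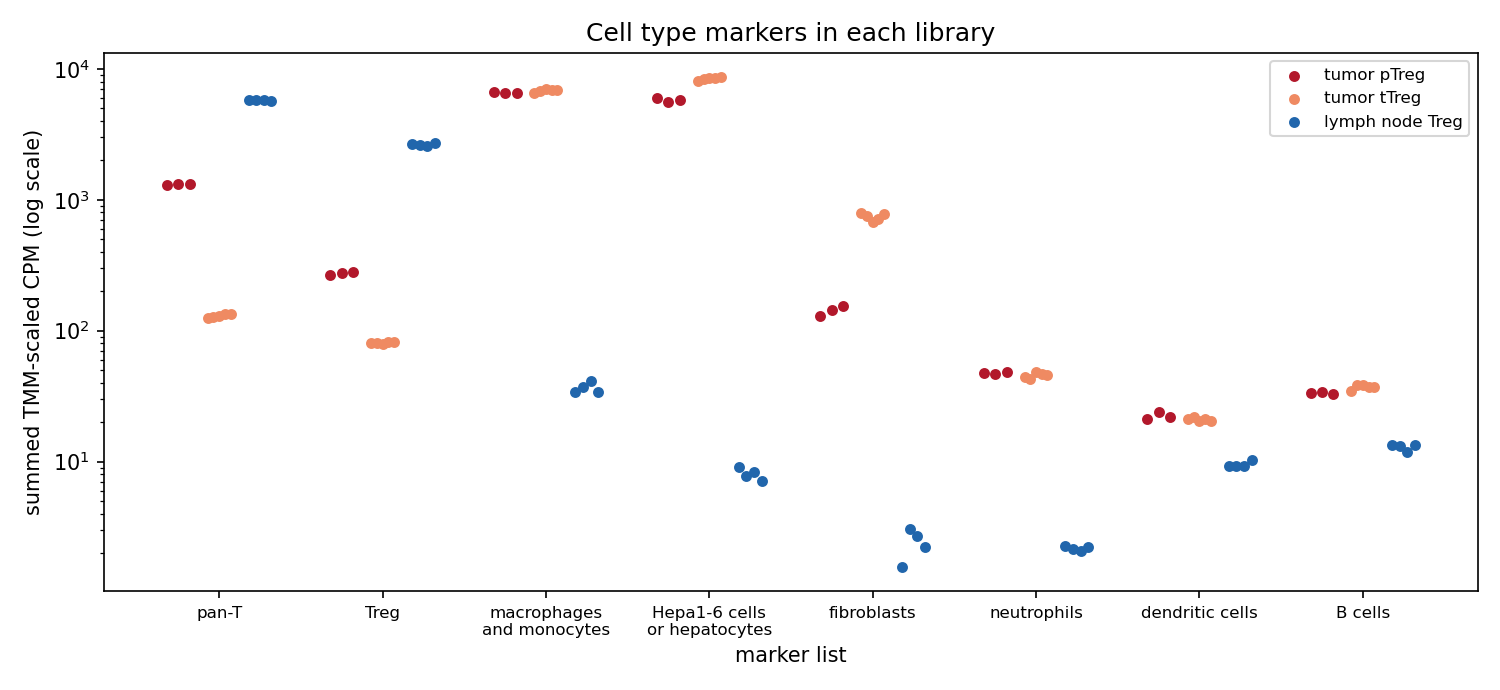
Summed level of each marker list (TMM-scaled CPM, log axis) with 1 point per library and the groups side by side. Pan-T and Treg markers were highest in lymph node Treg and lowest in tumor tTreg, whereas macrophage and Hepa1-6 markers were high in both tumor groups.

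The 10 genes fell into 3 patterns across the groups, with Rela outside them. Rel, Nfkb2 and Nfkbie were highest in tumor pTreg, then tumor tTreg, and lowest in lymph node Treg. Relb, Nfkb1 and Tnfaip3 were highest in lymph node Treg, lower in tumor pTreg and lowest in tumor tTreg. Nfkbid and Nfkbiz were highest in tumor pTreg and lowest in tumor tTreg, with lymph node Treg in between. Nfkbia shared the low level in tumor tTreg, and its tumor pTreg and lymph node Treg libraries overlapped. No member was highest in tumor tTreg. Overlap between groups is given for each gene as a description, since the share of all genes without overlap was not counted. On the FPKM scale, which divides by transcript length and so lets genes be compared, Tnfaip3 had the highest level in tumor pTreg (399 ± 12.9 FPKM) and lymph node Treg (609 ± 2.67), and Nfkbia in tumor tTreg (214 ± 7.63; SD, n = 3, 4 and 5). Relb had the lowest FPKM in both tumor groups, at 20.9 ± 0.537 in tumor pTreg, against 15.8 ± 0.545 in tumor tTreg, and Nfkbie in lymph node Treg, at 16.2 ± 0.798.

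**Figure D2:**
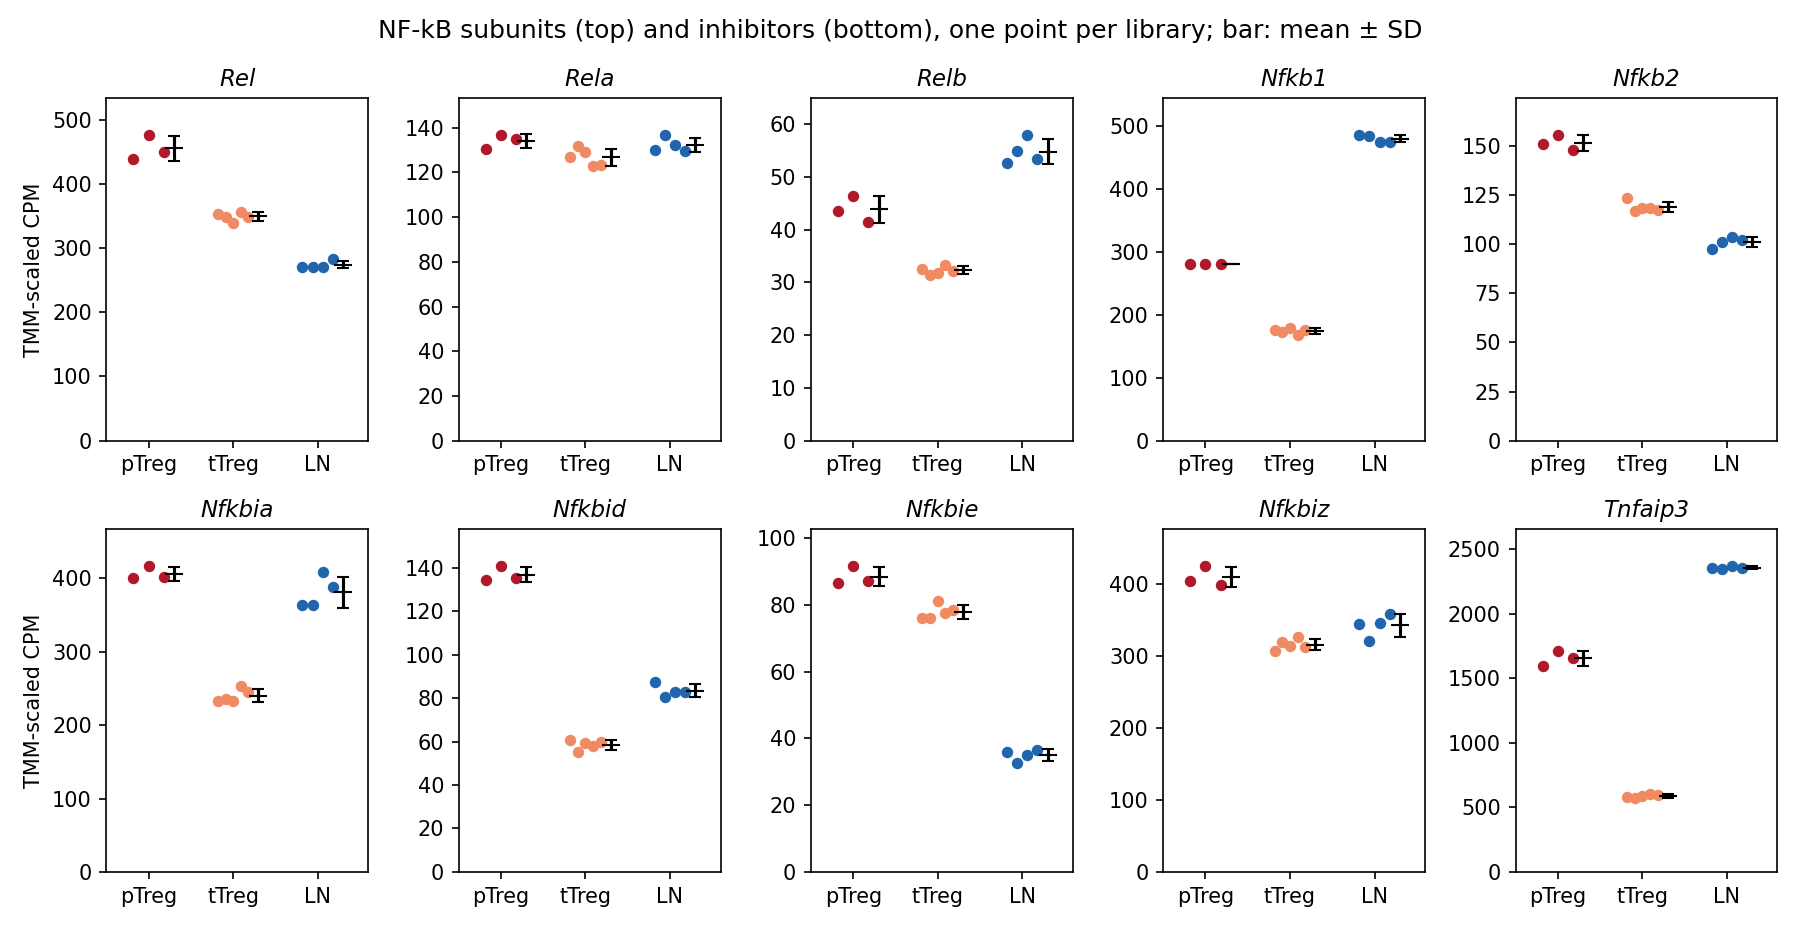
Level of each gene (TMM-scaled CPM, axis from 0) in tumor pTreg, tumor tTreg and lymph node Treg (LN), with 1 point per library and the mean ± SD beside the points. The tumor pTreg libraries lie above the tumor tTreg libraries for every gene except Rela, whose groups overlap. How often other genes separate in this way was not counted.

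The subunits are taken first. Nfkb1 encodes p105, the precursor of the p50 subunit, and lies on chromosome 3 (135584655 to 135691547, minus strand, GRCm38). Its level was 281, 281 and 281 in tumor pTreg libraries, 176, 172, 179, 169 and 175 in tumor tTreg libraries, and 486, 484, 475 and 476 in lymph node Treg libraries, in CPM. The 3 groups were far apart and the libraries within each lay close together. Nfkb1 was 1.61-fold higher in tumor pTreg than in tumor tTreg (log2 fold change 0.69, standard error 0.0274, edgeR quasi-likelihood adjusted p = 1.81e-18). Gm43430, on the same strand within Nfkb1, had 342 counts over all libraries against 63684 for Nfkb1. Against lymph node Treg Nfkb1 fell in both tumor groups, 1.71-fold in tumor pTreg (log2 -0.77, adjusted p = 1.73e-20) and 2.75-fold in tumor tTreg (-1.46, adjusted p = 6.76e-29).

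Nfkb2 encodes p100, the precursor of p52 and the hub of the alternative NF-kB pathway (chromosome 19, 46304320 to 46312385, plus strand). It read 151, 156 and 148 in tumor pTreg libraries, 123, 117, 119, 118 and 118 in tumor tTreg libraries, and 97.4, 101, 104 and 102 in lymph node Treg libraries, in CPM. The groups did not overlap, and their order differed from that of Nfkb1. Nfkb2 was higher in tumor pTreg than in tumor tTreg by 0.35 on the log2 scale (standard error 0.0304, adjusted p = 1.03e-10). It rose against lymph node Treg by 0.58 in tumor pTreg (adjusted p = 5.33e-16) and by 0.23 in tumor tTreg (adjusted p = 2.08e-08). The end of Nfkb2 overlaps Psd, a gene on the other strand with 2393 counts over all libraries against 25661 for Nfkb2, and the sources used here do not say whether counting used strand.

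Rel, which encodes c-Rel, a subunit that lymphocytes use after antigen receptor signals, lies on chromosome 11 (23736847 to 23770970, minus strand). It read 439.5, 477 and 449.9 in tumor pTreg libraries, 353, 349, 339.8, 357 and 349 in tumor tTreg libraries, and 271, 271, 271 and 283 in lymph node Treg libraries, in CPM. Every tumor pTreg library was above every tumor tTreg library, and those were above every lymph node Treg library. The log2 fold change was 0.38 between tumor pTreg and tumor tTreg (standard error 0.0291, adjusted p = 6e-12). Against lymph node Treg it was 0.73 for tumor pTreg (adjusted p = 6.54e-19) and 0.35 for tumor tTreg (adjusted p = 1.6e-12).

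Relb, the partner of p52 in the alternative pathway and abundant in dendritic cells, lies on chromosome 7 (19606217 to 19629438, minus strand). It read 43.6, 46.5 and 41.5 in tumor pTreg libraries, 32.6, 31.5, 31.8, 33.4 and 32.2 in tumor tTreg libraries, and 52.7, 54.9, 58.0 and 53.4 in lymph node Treg libraries, in CPM. The groups again did not overlap, with lymph node Treg highest, so Relb and Nfkb2 moved in opposite directions against lymph node Treg. Relb was higher in tumor pTreg than in tumor tTreg (log2 0.44, adjusted p = 3.98e-09). It fell against lymph node Treg by a log2 fold change of -0.32 in tumor pTreg (adjusted p = 2.23e-07) and -0.76 in tumor tTreg (adjusted p = 2.16e-16).

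Rela encodes p65, the subunit with a strong activation domain that most cell types express (chromosome 19, 5637483 to 5648130, plus strand). It read 130.3, 137 and 135 in tumor pTreg libraries, 127, 132, 129, 123 and 123 in tumor tTreg libraries, and 130.0, 137, 132 and 129.6 in lymph node Treg libraries, in CPM, and all 3 groups overlapped. Against tumor tTreg its level in tumor pTreg passed the test by a small margin (log2 0.08, standard error 0.0318, adjusted p = 0.0353). The call was lost in 13 of 26 alternatives and reversed in 1 (pan-T scaling). It was lost with RLE factors (adjusted p = 0.378) and DESeq2 (0.448), and again when tumor pTreg replicate 2 (0.137) or 3 (0.103), or tumor tTreg replicate 4 (0.0899) or 5 (0.0864), was left out. Against lymph node Treg it did not pass, with log2 fold changes of 0.021 in tumor pTreg (adjusted p = 0.562) and -0.06 in tumor tTreg (adjusted p = 0.0564). In tumor tTreg it did pass, as lower, in 10 alternatives, which include leaving out tumor pTreg replicate 2 (adjusted p = 0.031), tumor tTreg replicate 2 (0.0107) or lymph node Treg replicate 1 (0.0328) or 4 (0.0305).

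Several of these genes are textbook NF-kB targets, and their promoters are shown for the kappa B motifs they hold. RefSeq promoters (GRCm38.p6, 250 bases before to 50 after each start) had 12 entries for 7 of the 10 genes. Relb, Nfkb1 and Nfkbiz had no entry. A loose kappa B motif (GGGA, any 4 bases, then CC), searched on both strands, was found in 6 of the 7 genes, and in 22.9% of the 27025 genes of the table (20.7% of 32851 promoters). A strict form (GGGA, any base, then TTTCC), every match of which is also a loose match, was found in Nfkbia and Nfkb2, and in 0.466% of genes (0.411% of promoters). Nfkbie held neither motif in its window. The lines give stretches upstream of an annotated start for 5 genes, in the direction of transcription, with the matched letters in capitals. The match in Nfkbia and the second in Nfkb2 are the strict form, in Nfkbia on the opposite strand.
Nfkb2, chr19:46304673-46304732, plus strand: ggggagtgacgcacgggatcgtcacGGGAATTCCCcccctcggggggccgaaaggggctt
Nfkb2, chr19:46305680-46305739, plus strand: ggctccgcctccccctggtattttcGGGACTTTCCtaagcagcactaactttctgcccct
Rel, chr11:23771027-23771086, minus strand: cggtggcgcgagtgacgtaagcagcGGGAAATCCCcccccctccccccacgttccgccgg
Nfkbia, chr12:55492648-55492701, minus strand: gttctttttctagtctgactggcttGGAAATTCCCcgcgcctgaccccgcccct
Nfkbid, chr7:30422156-30422214, plus strand: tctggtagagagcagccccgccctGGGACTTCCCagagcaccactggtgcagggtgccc
Tnfaip3, chr10:19015501-19015560, minus strand: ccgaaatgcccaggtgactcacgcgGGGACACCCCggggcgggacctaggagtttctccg
The matches begin 39 and 225 bases upstream of 2 different starts of Nfkb2, and 92, 29, 226 and 125 bases upstream of a start of Rel, Nfkbia, Nfkbid and Tnfaip3. The strict Nfkb2 match also begins 10 bases after another annotated start of that gene. Other upstream matches, such as that of Rela at 217 bases, are not printed, and some entries of Nfkbid held none. The first Nfkb2 stretch also lies within AC114539.1, a noncoding gene on the other strand. A match is a description of letters. It was not tested as a binding site, nor against the level of any gene.

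Among the inhibitors, Tnfaip3 encodes A20, a ubiquitin-editing enzyme that shuts down signals upstream of the IkB kinases (chromosome 10, 19000910 to 19015657, minus strand). It read 1596, 1714 and 1657 in tumor pTreg libraries, 584, 569.8, 587, 601 and 599 in tumor tTreg libraries, and 2356, 2349, 2372 and 2358 in lymph node Treg libraries, in CPM. Lymph node Treg libraries lay within a narrow range, and no group came near another. Tnfaip3 was 2.82-fold higher in tumor pTreg than in tumor tTreg (log2 1.49, standard error 0.0295, adjusted p = 8.06e-26), which is the widest gap between the tumor groups among the 10 genes. It fell 1.42-fold in tumor pTreg (log2 -0.51, adjusted p = 5.75e-15) and 4.01-fold in tumor tTreg (-2.00, adjusted p = 4.85e-31) against lymph node Treg.

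Nfkbia encodes IkB-alpha, the inhibitor that NF-kB dimers induce quickly to end their own activity (chromosome 12, 55489410 to 55492647, minus strand). It read 399.9, 417 and 402 in tumor pTreg libraries, 234, 236, 233, 253 and 246 in tumor tTreg libraries, and 364, 364, 408 and 388 in lymph node Treg libraries, in CPM. Tumor tTreg stood alone at the low end. Nfkbia was 1.69-fold higher in tumor pTreg than in tumor tTreg (log2 0.76, standard error 0.0353, adjusted p = 7.61e-17), and fell 1.59-fold in tumor tTreg against lymph node Treg (adjusted p = 2.28e-17). Tumor pTreg and lymph node Treg overlapped, and their log2 fold change of 0.092 (adjusted p = 0.0222) turned to -0.013 with library totals only and to -0.02 on log2 FPKM. That call was also lost with RLE factors (adjusted p = 0.0771), DESeq2 (0.0882) and a filter at a mean of 5 CPM (0.231), and without tumor pTreg replicate 2 (0.144), lymph node Treg replicate 1 (0.126) or replicate 2 (0.108).

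Nfkbie encodes IkB-epsilon, an inhibitor that also responds to NF-kB (chromosome 17, 45555703 to 45563169, plus strand). It read 86.4, 91.6 and 87.1 in tumor pTreg libraries, 75.9, 76.2, 81.0, 77.6 and 78.4 in tumor tTreg libraries, and 36.1, 32.5, 35.0 and 36.6 in lymph node Treg libraries, in CPM. Both tumor groups stood far above lymph node Treg and lay close to each other. Nfkbie rose 2.52-fold in tumor pTreg (log2 1.33, standard error 0.042, adjusted p = 4.92e-22) and 2.22-fold in tumor tTreg (1.15, adjusted p = 1.46e-21) against lymph node Treg. Between tumor pTreg and tumor tTreg the log2 fold change was 0.18 (adjusted p = 9.98e-05), and the libraries did not overlap.

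Nfkbid and Nfkbiz encode nuclear IkB proteins, which work in the nucleus on selected target genes rather than in the cytoplasm. Nfkbid, the gene of IkBNS, which takes part in Foxp3 induction in mouse (chromosome 7, 30421732 to 30428746, plus strand), read 135, 141 and 135 in tumor pTreg libraries, 60.9, 55.0, 59.2, 57.9 and 59.9 in tumor tTreg libraries, and 87.5, 80.5, 82.8 and 82.6 in lymph node Treg libraries, in CPM. Tumor pTreg was above and tumor tTreg below every lymph node library. The log2 fold change was 1.23 between the tumor groups (standard error 0.0353, adjusted p = 6.74e-22). Against lymph node Treg it was 0.71 for tumor pTreg (adjusted p = 4.96e-17) and -0.51 for tumor tTreg (adjusted p = 5.69e-14). Nfkbiz, the gene of IkB-zeta, which toll-like receptor and interleukin-1 signals induce (chromosome 16, 55811375 to 55838899, minus strand), read 404, 425 and 399 in tumor pTreg libraries, 307, 319.6, 314, 326 and 312 in tumor tTreg libraries, and 345, 321, 346 and 359 in lymph node Treg libraries, in CPM. Tumor pTreg lay above both other groups, which overlapped each other. Its log2 fold changes in the same order of comparisons were 0.37 (adjusted p = 7.97e-11), 0.26 (adjusted p = 6.48e-08) and -0.12 (adjusted p = 0.000702).

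The first comparison sets the libraries labelled tumor pTreg against those labelled tumor tTreg, which differ in T cell markers as well. All 10 members were called higher in tumor pTreg and 0 lower, where 52.1% of all 15705 genes tested were called, 26.8% higher and 25.3% lower. The median log2 fold change of the 10 was 0.41 against -0.008 over all genes, with 0.38 for the 5 subunits and 0.76 for the 5 inhibitors. Pan-T genes moved the same way and much further: 16 of 16 were higher in tumor pTreg, with a median of 11.3-fold. Macrophage markers hardly differed (1 of 13 higher and 4 lower, median log2 fold change -0.022), and all 7 tested Hepa1-6 or hepatocyte markers were lower (median -0.54). Fibroblast markers were lower in 6 of 6 cases (median 7.54-fold), endothelial markers higher in 4 of 5 (2.99-fold), and CD8 T and NK cell markers higher in 2 of 3 tested (20.9-fold). Treg markers were higher in 5 of 6 cases (2.45-fold). Scaled to pan-T counts in place of library totals, all 10 members were lower in tumor pTreg, from -1.83 for Tnfaip3 to -3.25 for Rela on the log2 scale. That scaling moved the median of all genes to -3.33 and shifts all genes alike, so it is no separate evidence on the members.

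Against lymph node Treg the members split. In tumor pTreg 6 were called higher (Rel, Nfkb2, Nfkbia, Nfkbid, Nfkbie and Nfkbiz) and 3 lower (Relb, Nfkb1 and Tnfaip3), where 87.5% of all genes were called, 47.6% higher and 39.8% lower. In tumor tTreg 3 were higher (Rel, Nfkb2 and Nfkbie) and 6 lower (Relb, Nfkb1, Nfkbia, Nfkbid, Nfkbiz and Tnfaip3), where 90.3% of all genes were called, 48.1% higher and 42.3% lower. Their median log2 fold changes were 0.17 and -0.31, beside 0.12 and 0.10 over all genes, and both comparisons share the lymph node libraries. Pan-T genes fell in 16 of 16 cases in both, the median fall being 4.95-fold in tumor pTreg and 48.2-fold in tumor tTreg. Treg markers fell in 6 of 6 cases in both, by medians of 14.7-fold in tumor pTreg and 37.1-fold in tumor tTreg. No member fell as far as the pan-T median: the furthest falls were 1.71-fold for Nfkb1 in tumor pTreg and 4.01-fold for Tnfaip3 in tumor tTreg. Macrophage markers rose in 13 of 13 cases in both, by medians of 9.32 and 9.26 on the log2 scale.

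On the pan-T scale every member was higher in the tumor groups than in lymph node Treg, including those that fell by CPM. The log2 fold changes ran from 1.37 for Nfkb1 to 3.47 for Nfkbie in tumor pTreg, where the median of all genes moved to 2.25. They ran from 3.46 for Tnfaip3 to 6.61 for Nfkbie in tumor tTreg, where it moved to 5.56. Per 100 pan-T counts Tnfaip3 read 127 ± 3.45 in tumor pTreg (n = 3), 451 ± 7.32 in tumor tTreg (n = 5) and 41.0 ± 0.336 in lymph node Treg (SD, n = 4). Rela read 10.3 ± 0.166, 97.3 ± 5.54 and 2.30 ± 0.0521 per 100 pan-T counts in the same order. For genes that macrophages and tumor cells use as well, this scale is not a level per T cell.

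**Figure D3:**
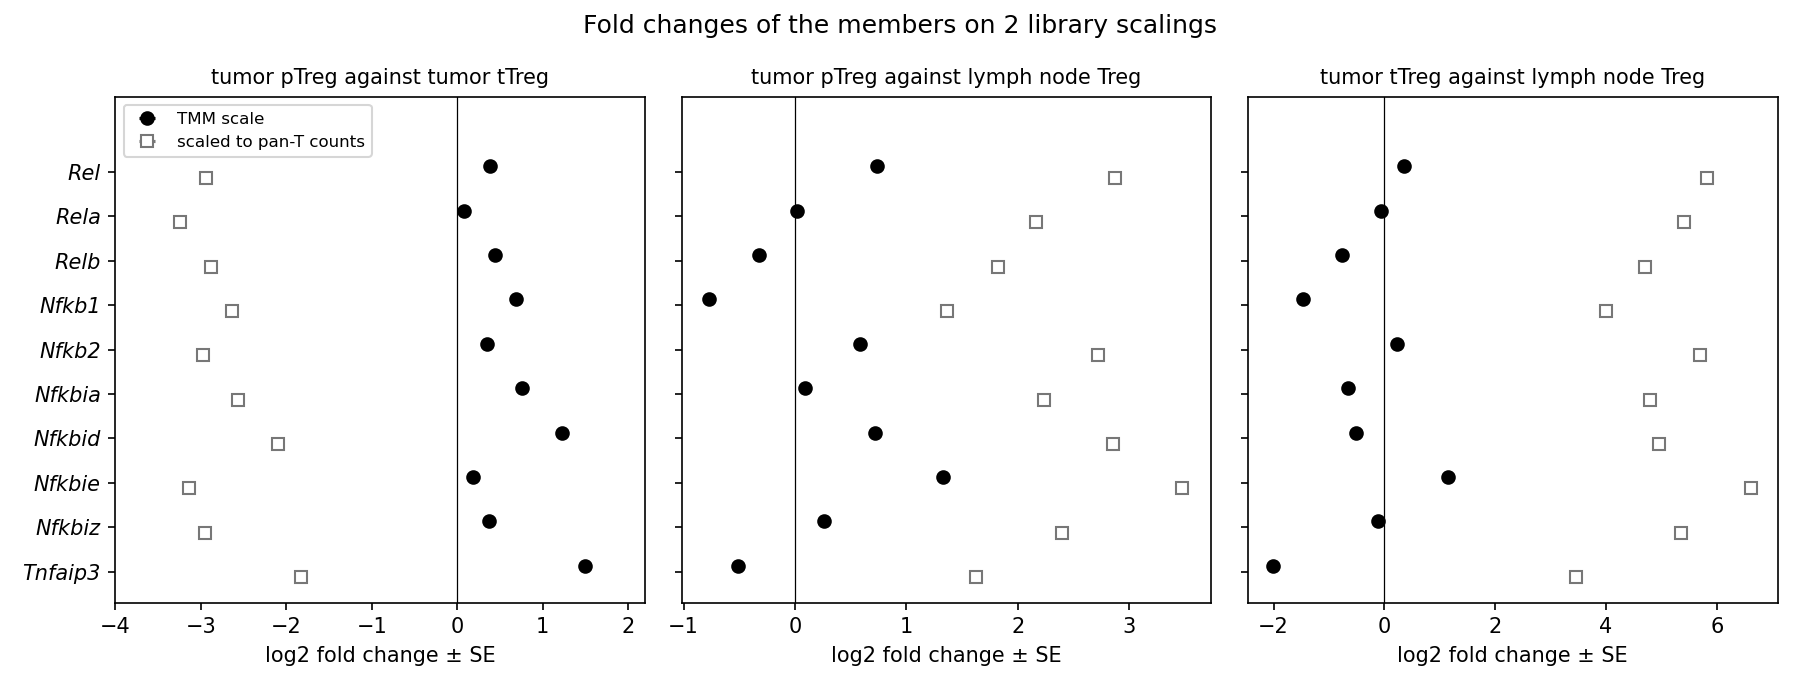
Log2 fold change ± standard error of each gene in the 3 comparisons, with filled circles for the TMM scale and open squares for libraries scaled to pan-T counts. All 10 circles lie above 0 between the tumor groups and all 10 squares below it, and against lymph node Treg the squares lie above 0 for every gene.

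Ratios between genes of the same library do not depend on how libraries are scaled, so the makeup of the subunit transcripts was described as each subunit's share of their summed FPKM. Nfkb1 made up 34.5 ± 1% in tumor pTreg (n = 3), 27.9 ± 0.467% in tumor tTreg (n = 5) and 50.8 ± 0.885% in lymph node Treg (SD, n = 4). Its share had no overlap between groups. Rel made up 19.9 ± 0.414%, 20.6 ± 0.556% and 11.05 ± 0.333% in the same order of groups. Nfkb2 made up 16.9 ± 0.349%, 18.0 ± 0.301% and 10.3 ± 0.158%. Both shares were larger in every tumor library than in any lymph node library. Rela made up 21.9 ± 0.708%, 26.8 ± 0.83% and 19.7 ± 0.969%, and Relb 6.76 ± 0.0826%, 6.80 ± 0.321% and 8.03 ± 0.242%. Tumor libraries held more Rel and Nfkb2, and less Nfkb1 and Relb, relative to all subunit transcripts. The summed FPKM of the 5 subunits was 309 ± 7.99 in tumor pTreg, 232 ± 4.13 in tumor tTreg and 362 ± 6.5 in lymph node Treg.

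**Figure D4:**
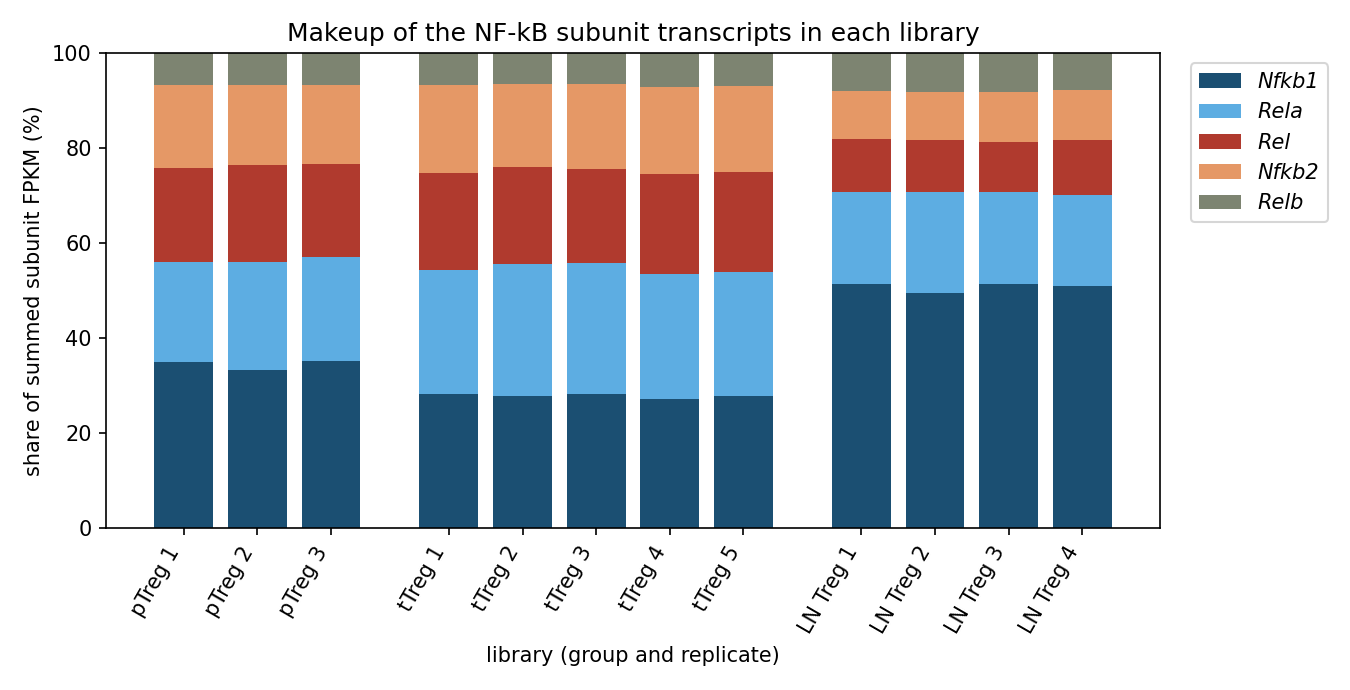
Share of each subunit gene in the summed FPKM of the 5 subunits (%, axis from 0 to 100), with 1 stacked bar per library. Nfkb1 takes 49.6 to 51.5% in the lymph node libraries and 27.1 to 35.2% in the tumor libraries.

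Single ratios of FPKM show the same reordering. Nfkb1 was 2.04 ± 0.0729 times Nfkb2 in tumor pTreg, 1.55 ± 0.0372 times in tumor tTreg and 4.92 ± 0.0998 times in lymph node Treg. Rel was 0.911 ± 0.0186, 0.769 ± 0.0416 and 0.561 ± 0.0356 times Rela in that order. Tnfaip3 was 1.13 ± 0.00636 times Nfkbia in tumor pTreg, 0.668 ± 0.0231 times in tumor tTreg and 1.70 ± 0.0857 times in lymph node Treg, so the 2 feedback inhibitors did not keep a fixed proportion. Nfkbia per Rela was close in tumor pTreg and lymph node Treg, at 5.24 ± 0.161 and 5.05 ± 0.415, and lower in tumor tTreg, at 3.45 ± 0.246. Nfkbie was 0.107 ± 0.000404 times Nfkbia in tumor pTreg, 0.159 ± 0.00646 times in tumor tTreg and 0.0452 ± 0.00327 times in lymph node Treg. These ratios are given without a test.

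The other genes of the pathway were read from a list of 85, all of which passed the filter, and their levels are given as the mean ± SD (n = 3 tumor pTreg, 5 tumor tTreg and 4 lymph node Treg libraries). Between tumor pTreg and tumor tTreg 50 were called higher (58.8%) and 20 lower (23.5%), where 26.8% of all genes were higher and 25.3% lower, and their median log2 fold change was 0.16 against -0.008 over all genes. Of 14 kinases and other genes that carry receptor signals to NF-kB, 10 were higher and 0 lower. Prkcq, a kinase of T cell receptor signalling, had the largest rise at 32.3 ± 0.909 CPM in tumor pTreg, against 2.91 ± 0.346 in tumor tTreg, and per pan-T count its difference did not pass the test (log2 0.15, adjusted p = 0.134). Of 15 adaptors and ubiquitin ligases 13 were higher and 0 lower, led by Traf1, an adaptor that NF-kB induces (75.8 ± 1.03 CPM in tumor pTreg, against 15.9 ± 1.22 in tumor tTreg), and Birc2, the ligase cIAP1 (101 ± 2.8 and 51.0 ± 0.974). Of 11 other inhibitors 6 were higher and 1 lower. Tnip1, a partner of A20, read 80.1 ± 2.96 CPM in tumor pTreg, against 41.0 ± 2.39 in tumor tTreg, and Cyld, a deubiquitinase, 91.7 ± 1.35 and 50.8 ± 2.41.

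Receptors and ligands differed more. Of 14 receptors 8 were higher in tumor pTreg and 3 lower. Cd27 read 12.9 ± 0.353 CPM in tumor pTreg, against 2.13 ± 0.383 in tumor tTreg, and Tnfrsf4 (OX40) 43.0 ± 2.6 and 8.12 ± 0.634, both co-stimulatory receptors of T cells. Of 9 ligands 5 were higher and 4 lower, and Tnfsf11 (RANKL, 80.5 ± 1.47 and 2.28 ± 0.351 CPM) and Cd40lg (23.2 ± 0.419 and 0.726 ± 0.162) were the only pathway genes higher per pan-T count, at log2 fold changes of 1.82 and 1.67. Of 22 reported target genes 8 were higher in tumor pTreg and 12 lower, with a median log2 fold change of -0.19. Ccl5, a chemokine of effector T cells, read 81.0 ± 3.85 CPM in tumor pTreg, against 10.1 ± 1.32 in tumor tTreg, whereas the inflammatory cytokine Il6 read 4.20 ± 0.369 and 7.25 ± 0.933. Scaled to pan-T counts, 2 of the 85 genes were higher and 82 lower, where 90 of all 15705 genes were higher and 15237 lower.

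Against lymph node Treg 42 of the 85 were higher (49.4%) and 36 lower (42.4%) in tumor pTreg, near the 47.6% and 39.8% of all genes. In tumor tTreg 40 were higher (47.1%) and 42 lower (49.4%), beside 48.1% and 42.3% of all genes. Scaled to pan-T counts the direction turned for most of those that were lower, with 79 higher and 5 lower in tumor pTreg, and 81 higher and 2 lower in tumor tTreg. Of all 15705 genes, 14316 were higher and 666 lower in tumor pTreg on that scale, and 15191 higher and 166 lower in tumor tTreg. The turn is therefore not particular to the pathway, nor to any role below. Of 15 adaptors and ubiquitin ligases 12 were called lower in tumor pTreg and 14 in tumor tTreg, with 0 higher in either, whereas all 15 were higher in both on the pan-T scale. Traf1 read 75.8 ± 1.03, 15.9 ± 1.22 and 216 ± 6.39 CPM in tumor pTreg, tumor tTreg and lymph node Treg, and Rnf31, the catalytic subunit of the linear ubiquitin ligase, 33.4 ± 2.08, 25.4 ± 1.14 and 98.4 ± 2.95. Kinases and the genes listed with them were lower in 10 of 14 cases in tumor pTreg and 11 of 14 in tumor tTreg, with 3 higher in each, whereas 12 and 13 of the 14 were higher on the pan-T scale. Prkcq, at 425 ± 11.9 CPM in lymph node Treg, and Ikbke, an IkB kinase relative (70.6 ± 3.1, 57.5 ± 1.76 and 360.1 ± 8.15 CPM in the 3 groups), fell furthest. Both stayed lower on the pan-T scale in tumor pTreg (log2 -1.577 for Prkcq and -0.211 for Ikbke). In tumor tTreg Prkcq stayed lower on that scale (-1.724) and Ikbke turned higher (2.816). Among the other inhibitors 7 of 11 were higher and 4 lower in tumor pTreg, and 6 higher and 4 lower in tumor tTreg, with all 11 higher in both on the pan-T scale. Cyld (290.4 ± 9.81 CPM in lymph node Treg) and Tnip1 (189 ± 6.39) were among those lower by CPM.

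Reported targets went the other way, with 19 of 22 higher and 2 lower in both tumor groups and median log2 fold changes of 4.66 in tumor pTreg and 4.65 in tumor tTreg. The chemokine genes that led them were near 0 in lymph node Treg: Ccl2 read 188 ± 2.05, 223 ± 8.07 and 0.116 ± 0.0782 CPM in tumor pTreg, tumor tTreg and lymph node Treg, and Ccl3 209 ± 5.81, 216 ± 13 and 0.202 ± 0.113. Cxcl1, a neutrophil chemoattractant, read 60.1 ± 2.48, 82.9 ± 3.57 and 0.0690 ± 0.104 CPM in the same order. Among ligands Il1a read 235 ± 7.73, 259.9 ± 8.75 and 0.0579 ± 0.0457 CPM and Il1b 194 ± 3.73, 239 ± 9.9 and 0.751 ± 0.399; both are interleukin-1 genes made largely by myeloid cells. Among receptors Ltbr, which drives the alternative pathway in stromal and myeloid cells, read 81.9 ± 4.29, 103 ± 2.47 and 0.183 ± 0.0913 CPM, and Tnfrsf11a, the receptor of RANKL, 33.3 ± 0.212, 31.2 ± 0.728 and 0.304 ± 0.0691. These genes rose against lymph node Treg in both tumor groups, and so did the markers of several other cell types. Called higher in both were 13 of 13 macrophage markers, 7 of 7 tested Hepa1-6 or hepatocyte markers and 6 of 6 fibroblast markers. The part of any of these cells in the result was not tested. Ligands were higher in 6 of 9 cases and lower in 3 in tumor pTreg, and higher in 5 and lower in 4 in tumor tTreg. Receptors were higher in 7 of 14 cases in both, and lower in 5 for tumor pTreg and 7 for tumor tTreg.

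**Figure D5:**
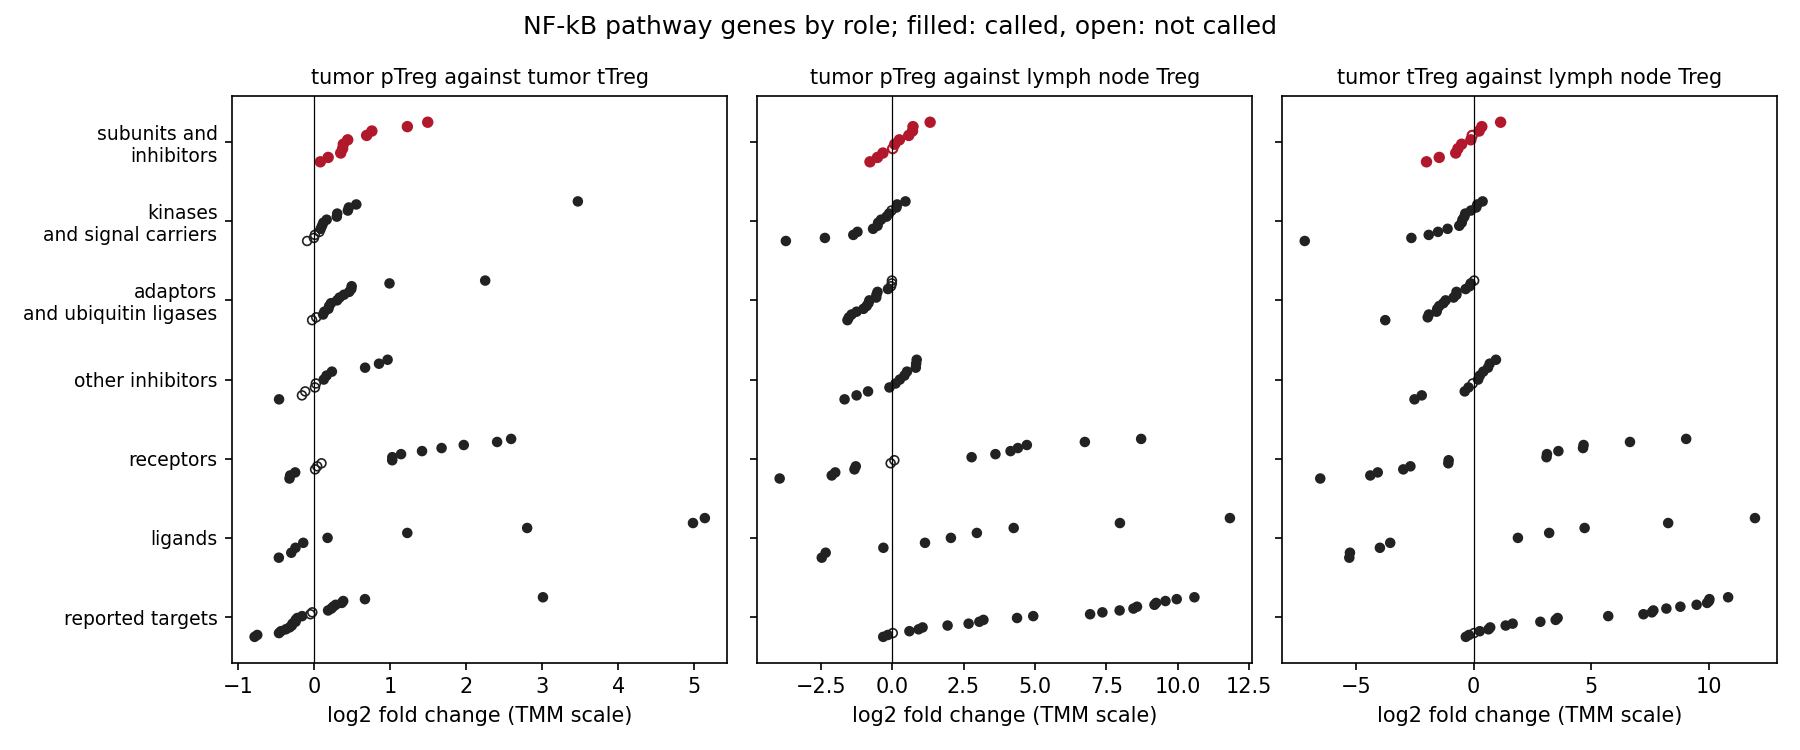
Log2 fold change of the 85 other pathway genes by role, with the 10 subunits and inhibitors on top, in the 3 comparisons. Filled points were called at an adjusted p below 0.05, and against lymph node Treg the highest values are those of ligands, reported targets and receptors.

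Which genes had the pattern most like each member was described by Pearson correlation of log2 CPM over the 12 libraries, among 9613 genes with at least 10 CPM on average. These libraries fall into 3 groups and share their depth and cell makeup within a group, so high values are common and no test is given. Tnfaip3 was most like Cd28 (r = 0.9995), Cd226 (0.9992) and Icos (0.9991), and Nfkb1 most like Prkcq (0.9997), Abca2 (0.9997) and Gimap8 (0.9995). Correlation takes no account of the size of a change. From lymph node Treg to tumor tTreg the mean of Prkcq went from 425 to 2.91 CPM, and that of Nfkb1 from 480 to 174. Nfkbie was most like Rilpl2 (0.998), Sema4c (0.9979) and Rnf19b (0.9978). Rel was most like Nr4a2 (0.9958), Gna13 (0.9947) and Lmnb1 (0.9926), and Nfkb2 like Slc20a1 (0.9922), Runx3 (0.9915) and Lag3 (0.9914). Relb was most like Junb (0.9931), Xlr4a (0.9919) and H2-Q4 (0.9917). The remaining inhibitors had Gem, Rpa2 and Crip1 (Nfkbia, 0.989 to 0.9904), Baz1a, Rora and Ifng (Nfkbid, 0.9915 to 0.9945), and Ctla2a (0.9705) and Atxn1 (0.9682, both Nfkbiz) nearest to them. Rela stood apart, with 0.8491 for Iqsec1 as its highest value. Among the members themselves Rel and Nfkb2 were most alike (r = 0.987), followed by Relb and Nfkb1 (0.981), and Nfkb1 and Nfkbie were furthest apart (-0.837).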

How the data were processed

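The values came from 2 tables the authors deposited, of RSEM expected counts and of FPKM, for 55413 gene symbols in the same 12 libraries, with 0 columns unused. The submitters' processing notes name STAR 2.7.11a, RSEM 1.3.3, DESeq2 and the build GRCm38/mm10. The expected counts were whole numbers as deposited by the authors, and FPKM were scaled to transcript length and library size by the authors. The gene annotation and strand setting are not given in the sources used here. Depth was 14.6 to 18.5 M counts per library.

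Counts were tested with edgeR 4.0.16 (R 4.3.3): TMM factors, filterByExpr by group, 1 quasi-likelihood fit of all 12 libraries with group as the only factor, and Benjamini-Hochberg adjustment over all 15705 genes of a comparison, with calls at an adjusted p below 0.05. Of 27279 genes with any count the others were filtered out. CPM use TMM-scaled totals, since library totals alone differed from them by factors of 0.971 to 1.051. FPKM are as deposited. Alternatives were RLE factors, library totals, pan-T scaling, other filters, DESeq2 1.42.0, limma 3.58.1 (voom, and log2 FPKM with a pseudocount of 1 or 0.1), a fold threshold, leaving out each library, and a replicate block. Members, gene lists and tests were chosen with earlier results of these data known. Named pathway genes are up to 2 per role and comparison with the largest log2 fold change, called, without overlap between groups and averaging 5 CPM or more in whichever group was higher. Of the genes this rule names 1 is not reported here, nor is 1 of the 3 genes most like Nfkbiz. Replicate libraries were not copies of each other: chi-square divided by its degrees of freedom was 1.65 to 3.97 within groups. Gene positions are from GENCODE vM21 (GRCm38), and promoter sequences from RefSeq.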

Additional observations from a re-analysis of the deposited data

Results flagged for a closer look

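A library stood apart from the rest of its group for 2 of 20 pairs of a member and a group with 4 or 5 libraries, a rule that chance meets in about 1 of 20 groups. Rel in lymph node Treg replicate 4 read 283 CPM, against 271 in each of the other 3 libraries. Nfkb2 in tumor tTreg replicate 1 read 123 CPM, against 117 to 119 in the others.

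For 3 members tumor pTreg and tumor tTreg moved in opposite directions against lymph node Treg. The difference itself was tested as tumor pTreg against tumor tTreg (edgeR), with log2 fold changes of 1.23 for Nfkbid (adjusted p = 6.74e-22), 0.76 for Nfkbia (7.61e-17) and 0.37 for Nfkbiz (7.97e-11). The direction of this difference follows from how the 3 members were chosen, so these p-values are no separate check. The rise of Nfkbia in tumor pTreg against lymph node Treg depends on the library scaling, and tumor tTreg and lymph node Treg overlapped for Nfkbiz.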

How the results depend on the processing

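Of 30 member results (10 genes in 3 comparisons) 26 kept their direction and call in every alternative other than pan-T scaling and the fold threshold. The exceptions were the 3 of Rela and that of Nfkbia in tumor pTreg against lymph node Treg. Scaling to pan-T counts reversed these log2 fold changes: Rel -2.942, Rela -3.245, Relb -2.883, Nfkb1 -2.636, Nfkb2 -2.976, Nfkbia -2.565, Nfkbid -2.099, Nfkbie -3.141, Nfkbiz -2.951, Tnfaip3 -1.831 in tumor pTreg against tumor tTreg, Relb 1.819, Nfkb1 1.366, Tnfaip3 1.628 in tumor pTreg against lymph node Treg, and Rela 5.404, Relb 4.702, Nfkb1 4.002, Nfkbia 4.797, Nfkbid 4.954, Nfkbiz 5.346, Tnfaip3 3.459 in tumor tTreg against lymph node Treg. Under it 90 genes were higher and 15237 lower in tumor pTreg against tumor tTreg, with 0 and 10 of the members and 2 and 82 of the other pathway genes. Under it 14316 genes were higher and 666 lower in tumor pTreg against lymph node Treg, with 10 and 0 of the members and 79 and 5 of the other pathway genes. Under it 15191 genes were higher and 166 lower in tumor tTreg against lymph node Treg, with 10 and 0 of the members and 81 and 2 of the other pathway genes. With a log2 fold change of at least 1 the counts were 1031 and 222 genes, 2 and 0 members, and 15 and 0 pathway genes, higher and lower in tumor pTreg against tumor tTreg. With a log2 fold change of at least 1 the counts were 4712 and 2785 genes, 1 and 0 members, and 30 and 18 pathway genes, higher and lower in tumor pTreg against lymph node Treg. With a log2 fold change of at least 1 the counts were 4874 and 3529 genes, 1 and 2 members, and 28 and 26 pathway genes, higher and lower in tumor tTreg against lymph node Treg. On log2(FPKM + 0.1) 9 pathway genes were lower in tumor pTreg against tumor tTreg, in place of 20. Rela in tumor pTreg against lymph node Treg turned to -0.004 with RLE factors and with DESeq2, -0.084 with library totals (adjusted p = 0.0258), -0.026 with a mean of at least 5 CPM, -0.074, -0.075 and -0.074 on log2 FPKM with a pseudocount of 1, of 0.1 and with a filter at a mean of 1, and -0.001 without tumor pTreg replicate 2, within a range of -0.001 to 0.045 with each library left out. Nfkbia in that comparison turned to -0.013 with library totals and to -0.02 on each of the log2 FPKM scales. With each library left out in turn, members called higher were 9 to 10, 5 to 6 and 3 in the 3 comparisons, and members called lower 0, 3 and 6 to 7. The samples share only replicate numbers: deviations of same-numbered libraries from their group means correlated at -0.0585 to 0.0563 over 9623 genes. A replicate block left 9 and 0, 6 and 3, and 3 and 6 members higher and lower, the lost call being Rela between the tumor groups (log2 0.057, adjusted p = 0.18). The causes of these changes were not tested. Tumor tTreg rests on few T cell counts, which limits the pan-T scale there.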
